A study of Mus musculus with 6 samples.

Results

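The 34 genes described here encode enzymes and regulators of glycolysis together with the factors, oxygen sensors and targets of the hypoxia response. They were taken by symbol from a list of 34, and all 34 had at least 20 UMIs (unique molecular identifiers, counted mRNA molecules) over all barcodes of a mouse lung single-cell table, of 14741 genes that did so and 27998 in the table. Their totals ran from 58 UMIs for Car9 to 16766 for Gapdh. The list holds 19 glycolytic genes, 3 pyruvate dehydrogenase kinases, 4 hypoxia factors and sensors and 8 hypoxia response genes.

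The study set lung mesenchyme after bleomycin, which injures the lung and leads to fibrosis, against normal lung. All 6 labelled samples came from SMA-GFP;Tbx4cre;RosaTdTomato mice, in which GFP reports smooth muscle actin and TdTomato marks cells with a history of Tbx4-driven Cre activity, 1 sample per group. On day 21 after bleomycin the groups were SMA+Tm+, SMA-Tm+ and SMA-Tm-, and the same 3 gates were sorted at day 0 from normal mice. The labels' protocol describes a sort of Epcam-, CD31- and CD45- cells, and it gives neither the mice's ages nor the number pooled.

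The table names each cell by a barcode and 1 of 6 suffixes, and nothing ties a suffix to a labelled sample. The bleomycin and normal groups were therefore not compared. Every value below compares cell classes within 1 pooled table, with no replicate of the comparison, so no test was made; intervals are exact 95% intervals and cover counting error only. Levels are UMIs of the gene per 1e+06 UMIs summed over the cells of a class (CPM), given also by suffix where a suffix held at least 20 cells and 20000 UMIs of the class.

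After filtering, 9919 cells with a median of 2699 UMIs were kept, and 7224 of them fell into a single reported class. The suffixes held 683 to 2990 cells, with median depths of 1783.5 to 3633.5 UMIs, and 55 barcode sequences occurred under a pair of suffixes. Fibroblasts, with at least 3 UMIs of Col1a2 and Col3a1 together, numbered 2485. Among them 559 held RNA of Hhip only (ductal), 319 of Pi16 only (adventitial) and 928 of Npnt only (alveolar). Mural cells, with at least 2 UMIs of Higd1b, Cox4i2 and Notch3, numbered 58. Despite the sort there were 563 endothelial cells with at least 2 UMIs of Pecam1 and Cdh5, and 4118 cells passed an immune gate, among them 821 alveolar macrophages, 427 classical and 134 nonclassical monocytes, 1618 B cells, 963 T cells and 155 NK cells.

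Among the fibroblasts, markers that were not used in a gate were highest in the class they are listed for. The summed level of Aspn, P2ry14, Lgr6 and Wif1 was 2091 CPM in ductal, 80.0 CPM in adventitial and 31.8 CPM in alveolar fibroblasts. Scara5, Ly6c1, Col14a1 and Dpp4 summed to 1403 CPM in adventitial cells, against 115 CPM in alveolar cells, while Slc7a10, Col13a1, Tcf21 and Wnt2 summed to 198 and 1255 CPM in the same classes. Cldn5 stood at 2776 CPM in endothelium and 1.8 CPM in fibroblasts, and Chil3 at 5190 CPM in alveolar macrophages and 293 CPM in monocytes. Some markers were not particular to 1 class. Ly6c1 was at 1974 CPM in endothelium and brought the adventitial list to 2061 CPM there, and Car4 of the macrophage list was at 780 CPM in endothelium. Plac8 of the monocyte list was at 709 CPM in B cells, Fn1 of the fibroblast list at 903 CPM in classical monocytes, and Ebf1 of the B cell list at 884 CPM in mural cells, where Pax5 and Blk had 0 UMIs. Classical monocytes also held 844 CPM of the neutrophil gene S100a8, and endothelium 916 CPM of epithelial markers. Mural cells held 2916 CPM of epithelial markers, which 1 barcode rich in surfactant RNA contributed to, so mural values rest on few and mixed molecules.

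Glycolysis splits glucose into pyruvate, yielding ATP without oxygen, and lactate dehydrogenase turns pyruvate into lactate. When oxygen is short, prolyl hydroxylases (Egln1, Egln3) no longer mark the alpha subunits Hif1a and Epas1 for degradation, and the stabilised factors raise glycolytic genes, pyruvate dehydrogenase kinases and targets such as Bnip3, Adm and Ankrd37. Because the alpha subunits are regulated mainly as proteins, their RNA does not report the activity of the pathway. In the lung Epas1 is known as a gene of endothelium.

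Pooled over suffixes, the summed level of the 19 glycolytic genes was higher in macrophages, monocytes, T cells and NK cells than in stromal classes. B cells lay at the pooled level of ductal and mural cells. The summed level was 2422 CPM in alveolar macrophages, 2986 CPM in classical monocytes and 2685 CPM in nonclassical monocytes. T cells and NK cells had 1835 and 1831 CPM, and B cells 1277 CPM. Among stromal classes mural cells had 1292 CPM (interval 1105 to 1501), endothelium 1061 CPM, ductal fibroblasts 1326 CPM, adventitial 952 CPM and alveolar 965 CPM. In order of level, neighbours with overlapping intervals were T and NK cells, ductal fibroblasts, mural cells and B cells, and adventitial and alveolar fibroblasts; the endothelial interval (1005 to 1119) also met those of mural cells and adventitial fibroblasts. Every suffix value of alveolar macrophages and monocytes stood above every suffix value of the stromal classes. Ductal and adventitial fibroblasts overlapped in suffix 1, at 1126 CPM (1022 to 1237) and 1093 CPM (957 to 1242). In suffix 4 these fibroblasts had 1407 and 915 CPM. T cells reached 2461 CPM in suffix 4, where 45 T cells were counted, so that T cells and alveolar macrophages overlapped. NK cells had 1255 CPM in suffix 2 (38 cells), below ductal and mural cells of suffix 4 at 1407 and 1293 CPM. B cells ran from 1060 CPM in suffix 2 to 1873 CPM in suffix 4 (49 cells). The higher of these B cell values lay above every suffix value of the stromal classes.

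**Figure D1:**
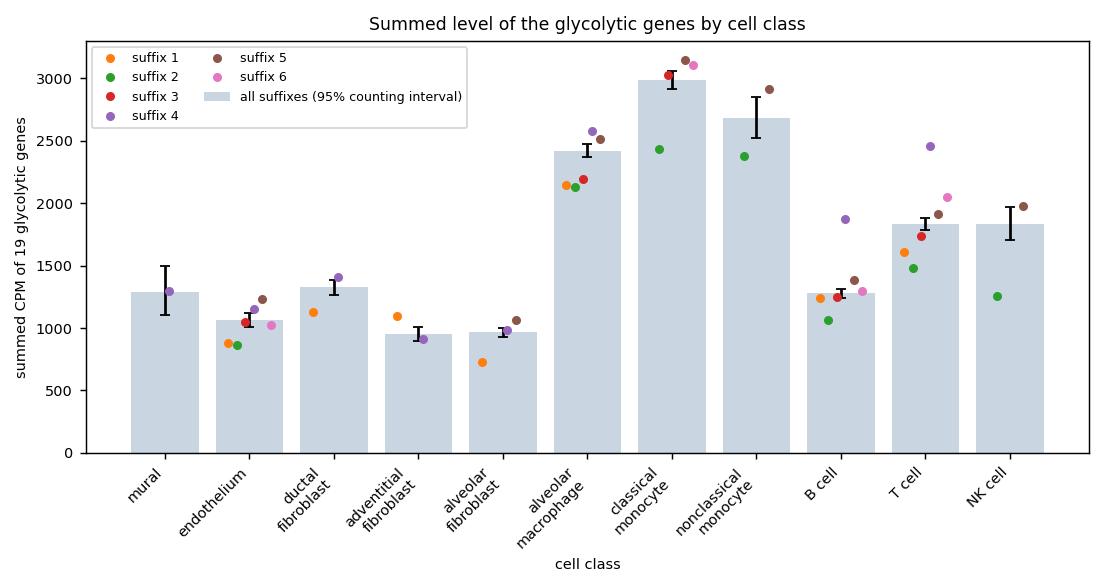
Summed CPM of the 19 glycolytic genes (y axis) in 11 cell classes (x axis); bars pool all suffixes with exact 95% counting intervals, and points are single suffixes with at least 20 cells and 20000 UMIs of the class. Alveolar macrophages and both monocyte classes stand at 2422 to 2986 CPM, above the stromal classes at 952 to 1326 CPM.

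**Figure D2:**
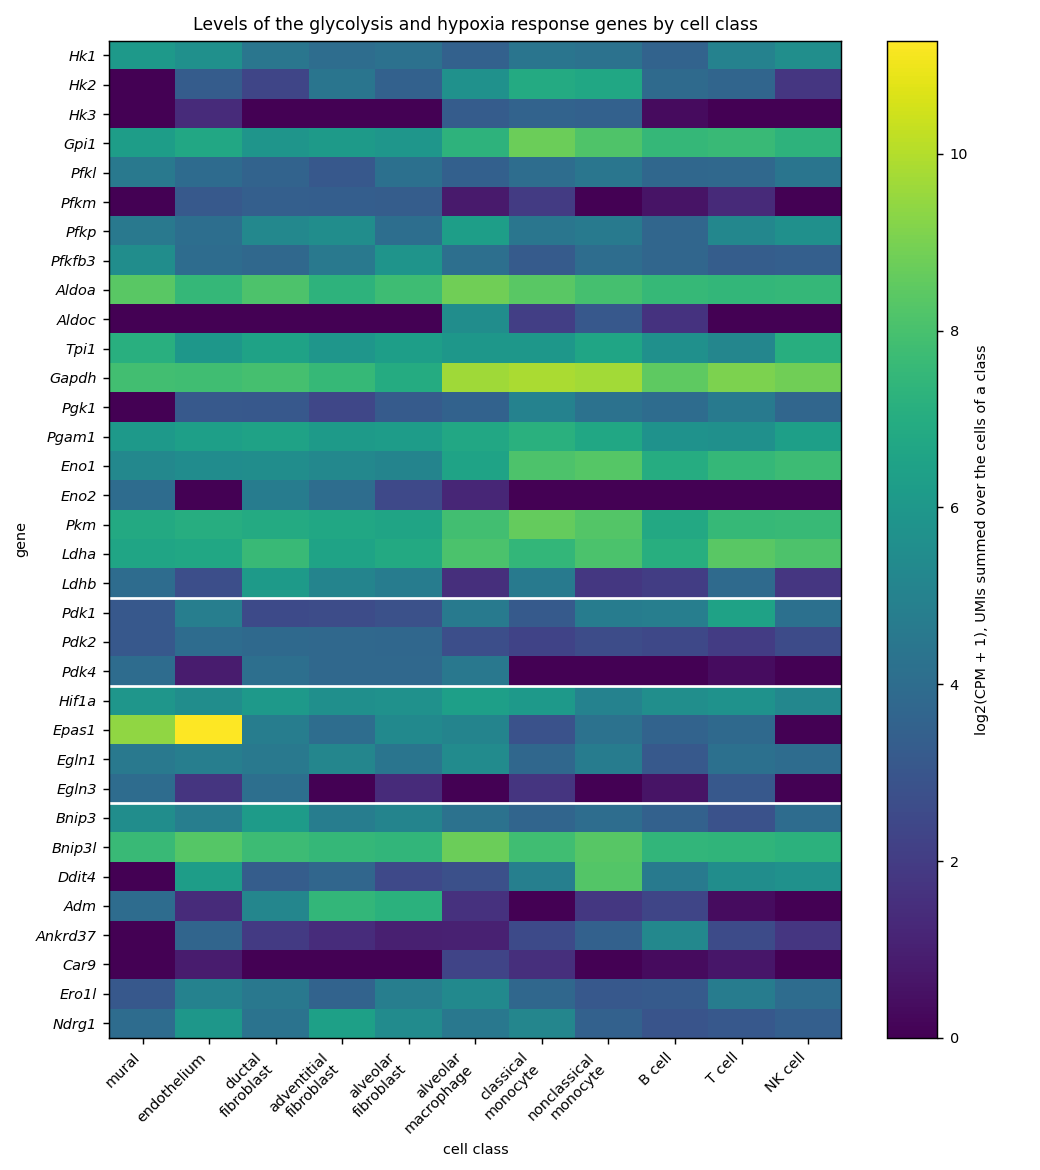
Colour gives log2(CPM + 1) for each of the 34 genes (rows) in 11 cell classes (columns), with white lines between glycolytic genes, pyruvate dehydrogenase kinases, hypoxia factors and sensors, and hypoxia response genes. Rows are to be read across classes only; Epas1 is brightest in endothelium at 2487 CPM and Gapdh in classical monocytes at 912 CPM.

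Gapdh, which oxidises glyceraldehyde 3-phosphate, made up 33.6% of the summed glycolytic UMIs in alveolar macrophages, 30.6% in classical monocytes, 18.6% in ductal, 19.96% in adventitial and 12.8% in alveolar fibroblasts. Reads that glycolytic genes share with processed pseudogenes were not resolved here, so a gene's level, or its share of a step, is compared between classes and not with another gene's. Other abundant members were spread over all classes. Aldoa (aldolase) ran from 154 CPM in adventitial fibroblasts to 457 CPM in alveolar macrophages, Pkm (pyruvate kinase) from 93.8 CPM in alveolar fibroblasts to 389 CPM in classical monocytes, and Bnip3l, a mitophagy receptor, from 149.5 CPM in NK cells to 429 CPM in alveolar macrophages. Hif1a lay between 31.0 CPM in nonclassical monocytes and 81.8 CPM in alveolar macrophages. The mural value of Pgk1 (phosphoglycerate kinase) was 0 UMIs, where 3 UMIs would correspond to 22.7 CPM.

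Ductal fibroblasts carried more Ldhb, Egln3 and Bnip3 RNA and less Hk2, Adm and Ndrg1 RNA than both other gated fibroblasts, each by 2-fold or more. Some of these differences lay near the threshold, as given beside each gene. Against alveolar fibroblasts, 29 of the 34 genes were measured, meaning that at the higher of the class levels the shallower class would be expected to hold at least 10 UMIs. Of those, 6 were at least 2-fold higher and 4 at least 2-fold lower in ductal cells. That is 34.5% of the 29, against 18.3% of the 10393 genes measured in this comparison, of which 8.28% were higher and 9.99% lower. The median log2 ratio was 0.27 for the members and 0.03 for all genes. Against adventitial fibroblasts 4 were higher and 3 lower of 28 measured, 25% against 19.7% of all genes (10.3% higher and 9.43% lower), with a median log2 ratio of 0.35 for the members and 0.08 for all genes.

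Among enzymes of the first, ATP-consuming steps, Hk2, an inducible hexokinase, was at 4.10 CPM (6 UMIs) in ductal, 19.8 CPM in adventitial and 10.2 CPM in alveolar cells. The log2 ratio was -2.27 (interval -3.86 to -0.93) against adventitial and -1.31 (-2.86 to -0.03) against alveolar cells. Within suffix 4 the ratio of Hk2 to alveolar cells was -1.15 with an interval that spans 0 (-2.88 to 0.25), and without suffix 4 Hk2 was not measured in either comparison. Pfkfb3, which makes the activator of phosphofructokinase, was at 13 CPM in ductal and 55.8 CPM in alveolar cells, a log2 ratio of -2.10 (-2.87 to -1.41), and the value was -1.77 within suffix 4 and -3.68 without it, the second resting on 2 UMIs in ductal cells. In adventitial cells Pfkfb3 stood at 22.4 CPM, and its ratio to ductal cells had an interval that spans 0. Pfkp, the platelet-type phosphofructokinase, went the other way, with 37.6 CPM in ductal, 44.7 CPM in adventitial and 16.1 CPM in alveolar cells. The log2 ratio of ductal to alveolar cells was 1.23 (0.64 to 1.81), and of ductal to adventitial cells -0.25 (-0.82 to 0.33).

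The later enzymes that passed 2-fold were higher in ductal cells. Lactate dehydrogenase B (Ldhb) was at 69.1 CPM in ductal, 32.7 CPM in adventitial and 25.6 CPM in alveolar cells. By suffix, Ldhb had 80.4 and 65.0 CPM in ductal, 23.4 and 36.3 CPM in adventitial and 9.94 and 28.3 CPM in alveolar cells of suffixes 1 and 4, so the ductal values did not overlap with the others. The log2 ratio of Ldhb was 1.08 against adventitial and 1.43 against alveolar cells, and 1.90 and 3.85 without suffix 4. Few Ldhb UMIs lay outside suffix 4, with 5 in adventitial and 2 in alveolar cells of suffix 1. Against adventitial cells it missed 2-fold within suffix 4 (0.84), without suffix 1 (0.90) and with stricter cell filters (0.94). Ldha, the other subunit, was at 198 CPM in ductal, 92.9 CPM in adventitial and 114 CPM in alveolar cells, a log2 ratio of 1.09 (0.77 to 1.43) against adventitial and 0.79 (0.56 to 1.02) against alveolar cells. Without suffix 4 the ratio of Ldha to adventitial cells was 0.58, and with stricter gates 0.88, both under 2-fold. Eno2, the enolase known from neurons, was at 25.3 CPM in ductal, 15.5 CPM in adventitial and 4.59 CPM in alveolar cells, and its log2 ratio of ductal to alveolar cells was 2.46 (1.54 to 3.46); without suffix 4 Eno2 was not measured there. Gapdh stood at 247 CPM in ductal, 190 CPM in adventitial and 123 CPM in alveolar cells. Its 2.001-fold ratio of ductal to alveolar cells (1.73 to 2.32) lay on the threshold. The ratio fell just under it with no cell filter, with called doublets kept, without suffix 3 and without suffix 5. In log2 it was 0.97 after centring on the median gene, 0.96 without Mki67 or Top2a cells and 0.89 with every cell weighted equally, each under 2-fold.

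**Figure D3:**
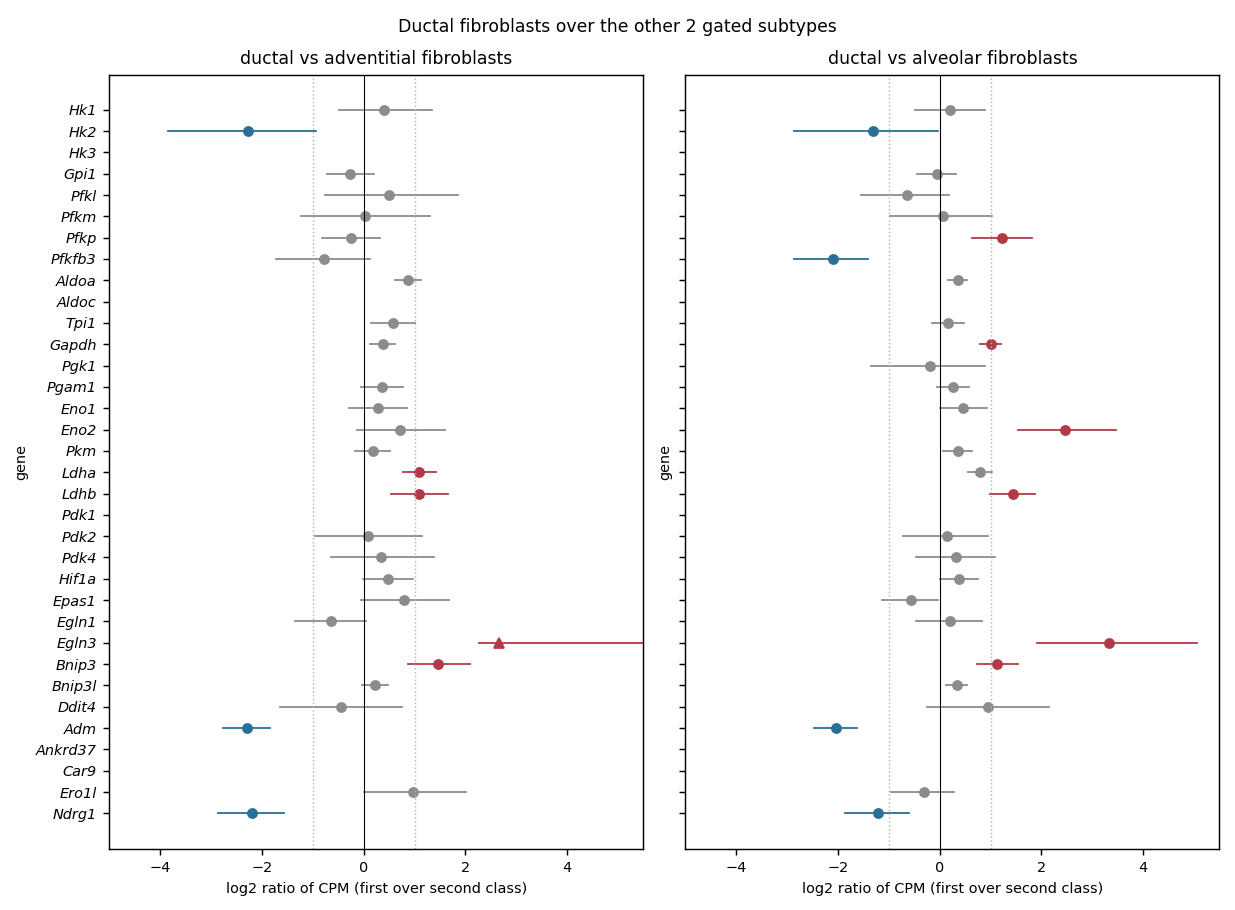
Log2 ratio of CPM with exact 95% counting intervals (x axis) for each member measured (y axis) in ductal over adventitial cells (left) and ductal over alveolar cells (right); red marks 2-fold higher, blue 2-fold lower, grey neither, and a triangle a lower bound. Adm, Hk2 and Ndrg1 lie left of 0 and Ldhb, Egln3 and Bnip3 right of 0 in both panels.

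The hypoxia-related members split in ductal fibroblasts. Egln3, an oxygen-sensing prolyl hydroxylase, had 24 UMIs (16.4 CPM) in ductal, none in adventitial and 5 UMIs (1.64 CPM) in alveolar cells, at least 6.36-fold higher than in adventitial cells when 3 UMIs are taken as the floor of that class; without suffix 4 it was not measured. Bnip3, a mitophagy receptor, was at 73.2 CPM in ductal, 26.7 CPM in adventitial and 33.5 CPM in alveolar cells, and its log2 ratio was 1.46 (0.87 to 2.08) against adventitial and 1.13 (0.72 to 1.53) against alveolar cells. Against alveolar cells the value was 0.93 within suffix 4 and without suffix 1, 1.95 within suffix 1, 1.89 without suffix 4 and 0.89 with stricter cell filters. Adm, which encodes the vasodilator peptide adrenomedullin, was in contrast at 35.6 CPM in ductal, 175 CPM in adventitial and 146 CPM in alveolar cells, 4.91-fold and 4.10-fold lower in ductal cells. By suffix, Adm had 23.4 and 37.7 CPM in ductal, 252 and 156 CPM in adventitial and 204 and 142 CPM in alveolar cells of suffixes 1 and 4, with no overlap between ductal and the other cells. Without suffix 4 Adm was 7.73-fold lower in ductal than in adventitial cells. Ndrg1, a stress-response gene, had 18.46 CPM in ductal, 84.3 CPM in adventitial and 42.6 CPM in alveolar cells, with log2 ratios of -2.19 (-2.86 to -1.56) and -1.21 (-1.86 to -0.60). Against alveolar cells Ndrg1 missed 2-fold without suffix 4 (-0.92) and with every cell weighted equally (-0.98). After thinning to 1000 UMIs per cell, Adm was seen in 4.06% of ductal, 11.4% of adventitial and 13.4% of alveolar cells, and in 0.186% of lymphocytes; before thinning the shares were 7.51%, 27.0%, 28.2% and 0.512%.

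The promoters of 3 of these genes are shown together with that of Ankrd37, a B-cell-high member. HIF binds a core of the letters ACGTG or GCGTG, and only ACGTG was searched for and marked here. The windows run from 250 bases before to 50 bases after the RefSeq start in GRCm38.p6, 5′ to 3′, with matches on either strand in capitals; the Bnip3 match CACGTG reads as the core on both strands. They are Egln3 at chr12:54203825-54204124 (minus strand), Bnip3 at chr7:138909457-138909756 (minus strand), Adm at chr7:110627407-110627706 (plus strand) and Ankrd37 at chr8:45999801-46000100 (minus strand).
Egln3: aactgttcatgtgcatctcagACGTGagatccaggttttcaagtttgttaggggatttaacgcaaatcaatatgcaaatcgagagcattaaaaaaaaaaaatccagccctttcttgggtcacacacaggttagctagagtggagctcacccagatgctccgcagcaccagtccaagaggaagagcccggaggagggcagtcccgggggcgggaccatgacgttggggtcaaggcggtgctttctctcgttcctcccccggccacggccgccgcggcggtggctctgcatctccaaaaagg
Bnip3: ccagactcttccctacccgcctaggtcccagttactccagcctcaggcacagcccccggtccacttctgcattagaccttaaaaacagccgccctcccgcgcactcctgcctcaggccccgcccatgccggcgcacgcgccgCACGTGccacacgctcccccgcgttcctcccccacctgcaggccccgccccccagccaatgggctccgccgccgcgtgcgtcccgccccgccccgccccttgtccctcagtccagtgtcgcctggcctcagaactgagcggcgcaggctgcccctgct
Adm: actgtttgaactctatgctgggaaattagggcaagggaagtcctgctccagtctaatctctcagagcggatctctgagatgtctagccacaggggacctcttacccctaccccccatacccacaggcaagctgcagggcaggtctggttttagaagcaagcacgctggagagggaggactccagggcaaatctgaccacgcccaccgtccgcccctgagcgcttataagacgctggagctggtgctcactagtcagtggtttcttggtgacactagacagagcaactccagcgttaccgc
Ankrd37: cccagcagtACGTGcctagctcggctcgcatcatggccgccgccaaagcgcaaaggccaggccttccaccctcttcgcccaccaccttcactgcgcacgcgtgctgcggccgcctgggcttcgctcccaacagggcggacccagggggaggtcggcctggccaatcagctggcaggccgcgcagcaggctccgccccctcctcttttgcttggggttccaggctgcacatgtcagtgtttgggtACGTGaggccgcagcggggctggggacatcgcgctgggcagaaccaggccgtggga
No ACGTG lies in the Adm window on either strand, but each run of cacgc in it reads as GCGTG on the other strand. The form GCGTG was left unmarked in all windows. RefSeq windows were found for 30 of the 34 members under their symbols, and 23 of their 44 windows (52.3%) hold ACGTG on either strand, against 6447 of all 32851 windows (19.6%). A match is a run of letters and was not shown to be bound.

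Of 49 other pathway genes listed, 34 were measured in ductal against alveolar cells, with 4 higher and 5 lower in ductal cells. That is 26.5% of the 34, against 18.3% of all genes measured. Vegfa, the endothelial growth factor, was at 8.20 CPM in ductal, 61.1 CPM in adventitial and 100.4 CPM in alveolar cells, a log2 ratio of -2.90 against adventitial and -3.61 against alveolar cells. Slc2a3, a glucose transporter, was at 10.3 CPM in ductal, 0.860 CPM in adventitial and 2.95 CPM in alveolar cells. Against adventitial cells, 3 of 30 measured were higher and 4 lower, 23.3% against 19.7% of all genes. The transcripts Fos, Jun and Egr1, known to rise during tissue dissociation, were also highest in ductal cells among these 3 classes, with Fos at 3468 CPM in ductal, 1956 CPM in adventitial and 1500 CPM in alveolar cells. These transcripts and Atf3 together summed to 7854 CPM in ductal, 4990 CPM in adventitial and 3348.5 CPM in alveolar cells, and Atf3 alone is not given here. Their part in the differences was not tested.

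Adventitial and alveolar fibroblasts differed in phosphofructokinases, Pfkfb3, Eno2 and hypoxia-related members. Of 27 measured, 3 were at least 2-fold higher and 4 at least 2-fold lower in adventitial cells, 25.9% against 16.8% of all genes (7.15% higher and 9.66% lower), and the median log2 ratio was 0.05 for the members and -0.07 for all genes. Pfkp (log2 ratio 1.48, interval 0.88 to 2.07), Eno2 (1.75, 0.66 to 2.87) and Ddit4, an mTOR inhibitor (1.39, 0.21 to 2.57), were higher in adventitial cells. Lower were Pfkfb3 (-1.32, -1.97 to -0.72), Epas1 (-1.36, -2.16 to -0.64), the oxidative folding enzyme Ero1l (-1.28, -2.25 to -0.43) and Pfkl, the liver-type phosphofructokinase (-1.14, -2.35 to -0.11). Ddit4 rests on 14 UMIs in each class and Pfkl on 9 UMIs in adventitial cells, and Pfkl missed 2-fold with called doublets kept or with stricter gates. Without suffix 4 the log2 ratio was 2.53 for Pfkp and -2.38 for Epas1, and Eno2, Pfkl, Ddit4 and Ero1l were not measured; nor was Ddit4 without suffix 1. Ndufa4l2, a hypoxia-regulated mitochondrial gene outside the list of 34, was at 68.8 CPM in adventitial and 10.2 CPM in alveolar cells.

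Endothelium stood apart in Epas1, the HIF-2 alpha subunit, whose gene lies at chr17:86753700-86833410 in GRCm38. It was at 2487 CPM in endothelium and 29.4 CPM in fibroblasts, 84.7-fold higher (74.2 to 97). In the 6 suffixes Epas1 in endothelium was at 1577 to 3536 CPM with a median of 3020, in fibroblasts at 28.3 to 87.1 CPM, with no overlap. Mural cells had 672 CPM (540 to 827), 22.9-fold higher than fibroblasts (17.7 to 29.3). After thinning, 82.6% of endothelial cells, 49.1% of mural cells, 3% of fibroblasts and 1.00% of lymphocytes held an Epas1 UMI, against 90.9%, 63.8%, 8.41% and 2.81% before thinning. Hif1a, the other alpha subunit, had 45.2 CPM in endothelium and 53.2 CPM in fibroblasts, a log2 ratio of -0.24 (-0.66 to 0.17), and 60.4 CPM in mural cells.

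Between endothelium and fibroblasts 5 members were higher and 5 lower by at least 2-fold of 30 measured, 33.3%, against 35.3% of all genes (19.1% higher and 16.2% lower), a share near the background. The dissociation transcripts Fos, Jun, Egr1 and Atf3 summed to 1992 CPM in endothelium and 4763 CPM in fibroblasts. The median log2 ratio was 0.18 for the members and 0.21 for all genes. Beside Epas1, 4 members were at least 2-fold higher in endothelium than in fibroblasts. They were Ddit4 at 76.1 against 6.51 CPM, Pdk1 (a kinase that inhibits pyruvate dehydrogenase) at 27.0 against 6.14 CPM, Ankrd37 (an ankyrin repeat protein) at 11.9 against 1.84 CPM and hexokinase Hk1 at 49.95 against 18.8 CPM. Within suffix 4 Hk1 was under 2-fold, at 29.6 CPM (7 UMIs, interval 11.9 to 60.9) in endothelium and 18.7 CPM in fibroblasts. Lower in endothelium were Adm at 1.59 CPM (2 UMIs) against 122 CPM, Ldhb at 5.55 against 36.4 CPM, Pfkfb3 at 15.1 against 34.7 CPM, Pdk4 at 0.793 CPM (1 UMI) against 13 CPM and Eno2 at 0 UMIs against 12.3 CPM. Eno2 was thus at least 5.17-fold lower at a floor of 3 UMIs. Pfkfb3 missed 2-fold with stricter gates (log2 ratio -0.88) and without suffix 4 (-0.86). The log2 ratio of Ldhb was -3.57 without suffix 4, against -2.71 with it. Endothelium held 4 Ldhb UMIs in suffix 4, 2 in suffix 5 and 1 in suffix 2. Without suffix 5 endothelium held no UMI of Adm or Pdk4, which were then at least 37.4-fold and 3.98-fold lower. Of the other pathway genes, 4 of 30 were higher and 5 lower, 30% against 35.3% of all genes. Among the higher ones was Vegfa at 193 CPM in endothelium and 64.5 CPM in fibroblasts.

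In mural cells only 10 members were measured, and 2 of them passed 2-fold, against 25.2% of all genes (16.1% higher and 9.06% lower), with a median log2 ratio of 0.21 for the members and 0.18 for all genes. Epas1 was higher. Adm was lower, with 15.1 CPM (2 UMIs) in mural cells and 122 CPM in fibroblasts, a log2 ratio of -3.02 (-6.06 to -1.16). Aldoa (0.73, 0.27 to 1.16) and Tpi1, triose phosphate isomerase (0.79, 0.03 to 1.46), lay above 0 and under 2-fold. Within suffix 4 Aldoa was at 0.83 (0.32 to 1.29), while the interval of Tpi1 spanned 0 (0.55, -0.41 to 1.37). Ndufa4l2 was at 1390 CPM in mural cells and 34.4 CPM in fibroblasts; Cox4i2 was part of the mural gate and is no finding. Of the mural cells 42 of 58 carried suffix 4, in which Epas1 was at 632 CPM; without it Adm was not measured in mural cells.

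**Figure D4:**
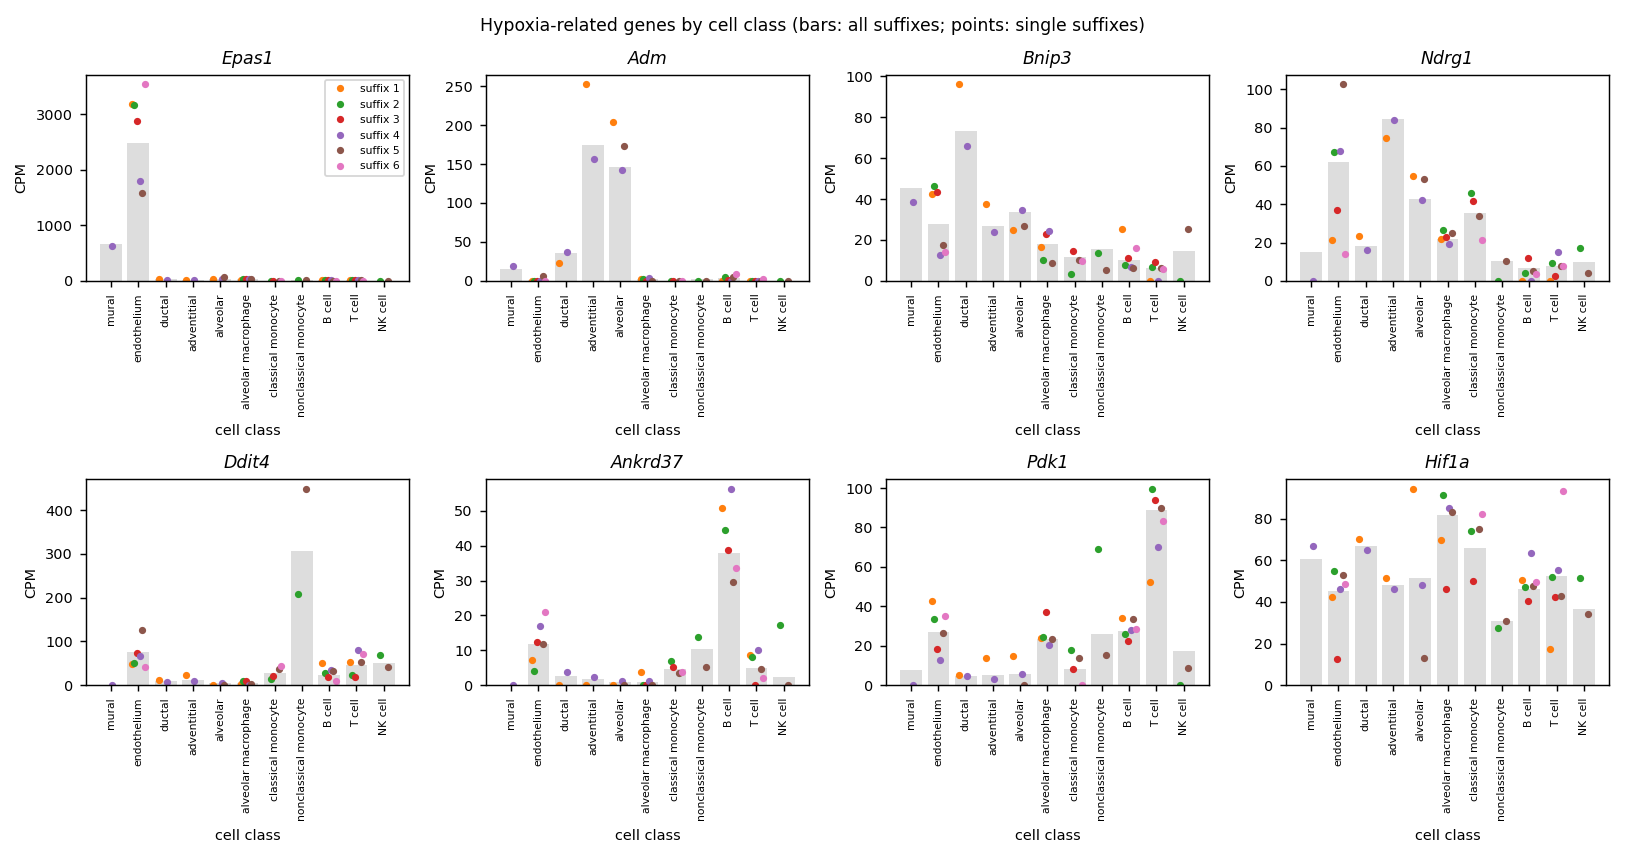
CPM (y axis, own scale per gene) of 8 genes in 11 cell classes (x axis); bars pool all suffixes and points are single suffixes with at least 20 cells and 20000 UMIs of the class. Epas1 is high in endothelium and mural cells, Adm in adventitial and alveolar fibroblasts, Bnip3 in ductal fibroblasts, Ddit4 in nonclassical monocytes, Ankrd37 in B cells and Pdk1 in T cells.

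The summed glycolytic level was lower in alveolar macrophages, at 2422 CPM (2373 to 2472), than in monocytes, at 2939 CPM (2872 to 3007), and single members differed in both directions. It was also lower in each suffix that gave both values, at 2129, 2198 and 2516 CPM in alveolar macrophages and 2422, 2989 and 3055 CPM in monocytes of suffixes 2, 3 and 5. Of 29 measured, 7 were at least 2-fold higher and 7 at least 2-fold lower in alveolar macrophages, 48.3% against 38% of all genes (26.2% higher and 11.8% lower). The median log2 ratio was -0.12 for the members and 0.34 for all genes. The same 4 dissociation transcripts summed to 1291 CPM in alveolar macrophages and 3186 CPM in monocytes; their part was not tested. Relative to that shift of the median of all genes, Pdk1 lost its 2-fold difference (0.77 after centring).

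Among glycolytic genes, Aldoc, the brain-type aldolase, was at 45.7 CPM in alveolar macrophages and 4.00 CPM in monocytes, 11.4-fold higher (6.08 to 24.3). Its suffix values ran from 14.7 to 68.3 CPM in alveolar macrophages and from 0.991 to 5.63 CPM in monocytes, with no overlap. Without suffix 4, Aldoc was at 25.4 CPM in alveolar macrophages and 2.48 CPM in monocytes, 10.3-fold higher. Pfkp was at 79.2 CPM in alveolar macrophages and 21.2 CPM in monocytes, a log2 ratio of 1.90 (1.48 to 2.35). Eno1 (enolase) was in contrast at 91.2 CPM in alveolar macrophages and 285 CPM in monocytes, Gpi1 (glucose phosphate isomerase) at 154 and 412 CPM, Pgk1 at 10.7 and 28.8 CPM, Hk2 at 51.8 and 115 CPM and Ldhb at 1.83 and 20.4 CPM, all at least 2-fold lower in alveolar macrophages. Hk2 missed 2-fold within suffix 3, with a log2 ratio of -0.73, and Pgk1 when ratios were stratified by suffix (-0.98). The log2 ratio of Ldhb was -4.40 without suffix 4, against -3.48 with it. Alveolar macrophages held 5 Ldhb UMIs in suffix 4 and 2 in suffix 5, so the value without suffix 4 rests on few molecules. Gapdh, at 814 CPM in alveolar macrophages and 901 CPM in monocytes, differed by a log2 ratio of -0.15 (-0.23 to -0.07).

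Of the pyruvate dehydrogenase kinases 2 of 3, and of the hypoxia factors and sensors 2 of 3 measured, were at least 2-fold higher in alveolar macrophages, and of 6 hypoxia response genes 1 was higher and 2 lower. Of all genes 26.2% were higher and 11.8% lower in this comparison, and lists this short are not read against those shares. Pdk4, a fasting-induced pyruvate dehydrogenase kinase, had 84 UMIs (22 CPM) in alveolar macrophages and none in monocytes, at least 18.3-fold higher at a floor of 3 UMIs (11.2-fold without suffix 3). Pdk1 had 23.3 CPM in alveolar macrophages and 10.8 CPM in monocytes, a log2 ratio of 1.11 (0.47 to 1.79), with 0.37 when every cell was weighted equally, 0.92 when stratified by suffix, 0.90 without suffix 3 and 0.75 without suffix 6. Epas1 was at 32.9 against 7.99 CPM, Egln1 at 42.1 against 14.8 CPM and Ero1l at 40.5 against 12.0 CPM, with log2 ratios of 2.04, 1.51 and 1.76. Epas1 was seen in 2.61% of thinned alveolar macrophages (12.4% before thinning) and in 1.00% of lymphocytes. Ddit4 and Ankrd37 were lower, Ddit4 at 5.75 CPM in alveolar macrophages and 71.5 CPM in monocytes and Ankrd37 at 1.05 CPM (4 UMIs) and 5.59 CPM. The log2 ratio of Ddit4 was -3.64, with -2.88, -2.64 and -4.39 without suffixes 4, 5 and 6, and that of Ankrd37 was -2.42, with -3.12 without suffix 1, and Ankrd37 was not measured without suffix 3. Among other pathway genes 10 of 32 were higher and 5 lower, 46.9% against 38% of all genes. The largest differences were Slc16a1, a lactate transporter, at 13.6 CPM in alveolar macrophages and 1.60 CPM in monocytes, the transcription factor gene Bhlhe40 at 216 and 30.4 CPM and the muscle enolase gene Eno3 at 2.88 and 51.6 CPM.

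Ddit4 also split the monocytes. Nonclassical monocytes had 307 CPM (254 to 367) and classical monocytes 28.4 CPM (21.7 to 36.5), and after thinning 22.3% and 1.65% of cells held a UMI, against 39.6% and 9.60% before. The nonclassical suffix values were 208 and 449 CPM, and the classical ones lay between 14.1 and 45 CPM, with no overlap. Ldhb went the other way, with 1 UMI (2.58 CPM, up to 14.4) in nonclassical and 23.6 CPM in classical monocytes. The classes also differed in median depth, 2216 UMIs in nonclassical and 4946 UMIs in classical cells.

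Monocytes had the higher level than lymphocytes in 12 of the 16 glycolytic genes measured, 7 of them by at least 2-fold. Of 26 members measured in all, 9 were at least 2-fold higher and 2 at least 2-fold lower in monocytes, 42.3% against 34.5% of all genes (15% higher and 19.4% lower). The median log2 ratio was 0.52 for the members and -0.17 for all genes. The dissociation transcripts Fos, Jun, Egr1 and Atf3 were all higher in monocytes too, summing to 3186 CPM in monocytes and 320 CPM in lymphocytes (164 to 353 CPM over the lymphocyte classes), and their part in the differences was not tested. Hk2 was at 115 CPM in monocytes and 12.4 CPM in lymphocytes, 9.31-fold higher (7.35 to 11.9), and the suffix values of 100.1 to 135 CPM in monocytes did not overlap with those of 4.57 to 24.5 CPM in lymphocytes. Hk3, a hexokinase of myeloid cells, had 27 UMIs (10.8 CPM) in monocytes and 1 UMI in lymphocytes, a log2 ratio of 6.34 (3.74 to 11.7); without suffix 2 lymphocytes held none, and Hk3 was at least 20.2-fold higher.

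Gpi1 (log2 ratio 1.13), Gapdh (1.05), Pgam1, phosphoglycerate mutase (1.34), Pkm (1.33) and Ldhb (1.40) were also higher in monocytes. With stricter cell filters Gapdh was at 0.80 and missed 2-fold. Ldha did not follow, with 191 CPM in monocytes and 228 CPM in lymphocytes and a log2 ratio of -0.25 (-0.40 to -0.11). Among hypoxia response genes Ndrg1 was at 31.6 CPM in monocytes and 7.20 CPM in lymphocytes. Ddit4 was at 71.5 and 35.2 CPM, but its log2 ratio of 1.02 (0.74 to 1.3) was 0.36 within suffix 3, 0.68 with stricter cell filters, 2.23 within suffix 5, 0.35 without suffix 5 and 0.99 without suffix 2. Gapdh was at 0.97 without suffix 3.

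Both members that were lower in monocytes were concentrated in 1 lymphocyte class. Pdk1 was at 10.8 CPM in monocytes and 53.9 CPM in lymphocytes, with 89.1 CPM in T cells, 27.5 CPM in B cells and 17.2 CPM in NK cells. By suffix Pdk1 ran from 52.5 to 99.7 CPM in T cells and from 22.6 to 33.9 CPM in B cells, with no overlap. Ankrd37 was at 5.59 CPM in monocytes and 21.47 CPM in lymphocytes, with 37.8 CPM in B cells (29.5 to 56.3 over 6 suffixes) and 4.88 CPM in T cells (0 to 10.0). Ldha was at 334 CPM in T cells, 279 CPM in NK cells and 132 CPM in B cells. Of other pathway genes 9 of 32 were higher in monocytes and 5 lower, 43.75% against 34.5% of all genes. Among them were the lactate exporter Slc16a3 at 32.4 CPM in monocytes and 2.40 CPM in lymphocytes, and Rora, a nuclear receptor, at 7.59 and 50.4 CPM.

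The share of an isoenzyme in the UMIs of its step also differed between classes. A step here holds only members of the list, so other genes of a step, such as Eno3 and Pdk3, were not counted. Hk2 made up 73.1% of the UMIs of the 3 hexokinase genes in alveolar macrophages (interval 67.4 to 78.3) and 79.2% in monocytes (74.6 to 83.2), with suffix values of 62.8 to 81.25% and 73.1 to 84.3%. In fibroblasts the share was 16.7% in ductal (6.37 to 32.8), 56.1% in adventitial (39.8 to 71.5) and 36.5% in alveolar cells (26.3 to 47.6). Pfkp was 88.1% of phosphofructokinase UMIs in alveolar macrophages and 53.5% in monocytes, and 64.7%, 72.2% and 38.0% in ductal, adventitial and alveolar fibroblasts. Eno2 was 35.6% of the UMIs of Eno1 and Eno2 in ductal, 29.0% in adventitial and 12.2% in alveolar cells, 1.41% in alveolar macrophages and 0 of 1157 UMIs in lymphocytes. Ldhb was 25.8%, 26.0% and 18.3% of lactate dehydrogenase UMIs in the same fibroblast classes, 5.07% in endothelium and 0.676% in alveolar macrophages. Pdk1 was 96.4% of the UMIs of Pdk1, Pdk2 and Pdk4 in T cells and 13.7% in ductal fibroblasts. Epas1 was 96.8 to 99.6% of the UMIs of both alpha subunits in endothelium over 6 suffixes.

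**Figure D5:**
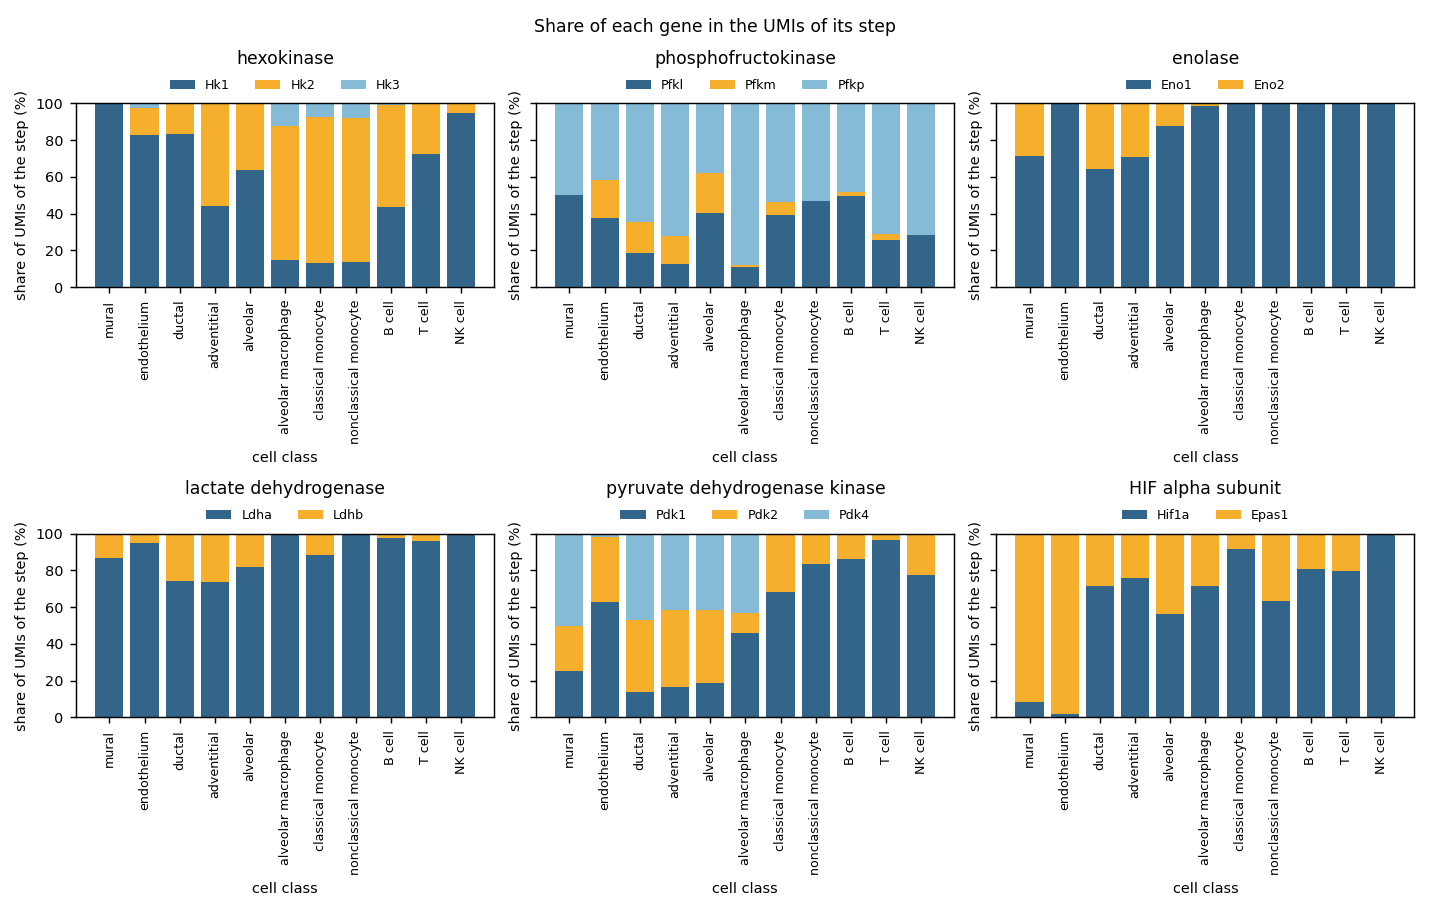
Share (%) of each gene in the UMIs of the listed members of its step (y axis, stacked to 100) in 11 cell classes (x axis), for 6 steps. Bars of 1 gene are to be read across classes. The Hk2 share is 73.1% in alveolar macrophages and 16.7% in ductal fibroblasts, and the Eno2 share is 35.6% in ductal fibroblasts and 1.41% in alveolar macrophages.

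The remaining members were low, or passed 2-fold in few or none of the pooled comparisons. Egln3 outside ductal and mural cells was highest in T cells, at 7.63 CPM. Car9, a carbonic anhydrase known as a hypoxia marker in tumours, reached at most 3.92 CPM (15 UMIs) in alveolar macrophages and had 2 UMIs in all fibroblasts. Pfkm, the muscle phosphofructokinase, was at 9.57 CPM in ductal, 9.46 CPM in adventitial and 9.19 CPM in alveolar fibroblasts and at 7.93 CPM in endothelium, and at most 2.84 CPM in immune classes. Pdk2 lay between 12.4 and 15.1 CPM in fibroblasts and endothelium and between 3.05 and 5.49 CPM in immune classes. Tpi1 and Pgam1 passed 2-fold in no pooled comparison but monocytes against lymphocytes for Pgam1, and Aldoa, Pfkm, Pdk2, Hif1a and Bnip3l in none of the 7. The log2 ratio of Aldoa in ductal over adventitial cells was 1.01 (0.70 to 1.32) within suffix 4 and 0.46 (-0.06 to 1.00) within suffix 1. Car9 was measured in no comparison.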

How the data were processed

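The authors deposited 1 table of raw UMI counts for all 6 samples, made with the 10x Single Cell 3′ v2 kit per the labels' protocols; STAR 2.5.1, Cell Ranger 1.3.0 and mm10 are named in the submitters' processing notes, and settings are not given in the sources used here. A deposited normalized table was not used here. Barcodes with under 500 genes (318) or over 10% mitochondrial UMIs (105) were left out, as were 75 doublets called per suffix with Scrublet in scanpy 1.11.5 (0.750% of those kept). Cells passing several gates (806) or none (1773) stayed out of the classes. Counts were summed per class (35262820 UMIs in the table) and compared with exact Poisson and conditional binomial intervals, and exact Clopper-Pearson intervals for shares (scipy 1.17.1); a class at 0 was set to 3 UMIs. For shares of cells with a UMI, cells were thinned to 1000 UMIs, leaving out 0 to 62 shallower cells per class. The threshold was 2-fold, for all genes alike. The ratio code was checked on simulated data. Members and lists were chosen with earlier results of these data known. Values are given for members past 2-fold, for the most abundant member of a step, and for at most 3 other pathway genes per direction of a comparison; some further members are named for contrast, chosen after their values were seen. Gene windows come from RefSeq, GRCm38.p6.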

Additional observations from a re-analysis of the deposited data

How the results depend on the processing

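Over 21 alternative settings the 7 counts of members past 2-fold had 141 alternative values, of which 129 stayed within 1.5 times and 12 did not, and no member past 2-fold changed direction. Requiring 20 expected UMIs left 4 members in adventitial against alveolar fibroblasts and 1 in mural cells, and 5 expected UMIs gave 4 in mural cells. A 1.5-fold threshold gave 11 in adventitial against alveolar, 13 in ductal against adventitial and 4 in mural cells. The lower threshold admits more of all genes too, and their share at 1.5-fold is not given here. Without suffix 4, 6 passed in ductal against alveolar and 1 in mural cells. Within suffix 2, 3 passed in endothelium, and within suffix 3, 5 in alveolar macrophages against monocytes. Fewer members are measured when more UMIs are required or cells are left out; the cause was otherwise not tested. Of 1426 values of single genes, sums and shares, 1334 stayed within their error and 92 moved, none reversing. Leaving out surfactant-rich cells, Cox4i2 from the mural gate or each suffix in turn, and stratifying by suffix, were chosen after seeing the data. No paired analysis was possible because no result comes from a test and each labelled group has 1 sample. Cell classes share suffixes, and ratios stratified by suffix gave 10 members in ductal against alveolar, 8 in adventitial against alveolar, 7 in ductal against adventitial, 2 in mural cells, 11 in endothelium, 13 in alveolar macrophages and 11 in monocytes against lymphocytes. The shares of all genes under these alternative settings are not given here, so the counts are not read against a background. Depth limits members under about 10 expected UMIs, mural cells most.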
